A study of Triticum aestivum with 24 samples.

Results

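Cleavage of wheat transcripts at sites paired with miR1137 was examined for 5 loci of 3 gene classes in the degradome of bread wheat leaves (Triticum aestivum cv Chinese Spring). The loci were taken by their gene IDs, as all rows of the authors' target table under those IDs, and they gave 11 of the 239 rows and 5 of the 62 loci. They are the carboxyl-terminal-processing protease homoeologues TraesCS7A01G228300, TraesCS7B01G191400 and TraesCS7D01G226300 on chromosomes 7A, 7B and 7D, the Protein DETOXIFICATION locus TraesCS6B01G185100 on 6B and the beta-fructofuranosidase locus TraesCS5B01G557400 on 5B. The degradome was read by parallel analysis of RNA ends (PARE), in which the first base of an uncapped, polyadenylated fragment marks where its transcript was cut. The 24 libraries came from plants of 1 selfed individual at the boot stage, 4 replicates each of plants heated at 37 °C for 5 days and of unheated controls, with leaves taken at 0, 1 and 4 days after treatment and RNA pooled over 18 plants per library. The table gives 1 value per miRNA and site and names no library, and the effect of heat on these loci was therefore not computed. It holds no transcript levels either, and leaf markers were not checked.

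A plant miRNA is loaded into an Argonaute protein, which cuts a paired transcript opposite the middle of the miRNA, between bases 10 and 11 counted from the miRNA's 5′ end. The first base of the downstream fragment then lies opposite base 10. Pairing at the 5′ part of the miRNA, bases 2 to 8 or the seed, usually weighs most in target choice. The miR1137 precursors are long hairpins of inverted repeats, and several wheat miRNA families of this kind have been related to miniature inverted-repeat transposable elements. Carboxyl-terminal-processing proteases trim the end of the photosystem II protein D1 in chloroplasts, a step known from cyanobacteria, spinach and Arabidopsis. DETOXIFICATION proteins are exporters of the multidrug and toxic compound extrusion family, which move organic compounds out of the cytosol. Beta-fructofuranosidase, or invertase, splits sucrose into glucose and fructose and is labelled the sucrose-cleaving enzyme in the plots.

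The 6 miRNAs listed at these loci are shown because the gene classes divided by the hairpin arm they come from. They are printed 5′ to 3′ with T for U and with the seed in capitals.
miR1137-504-5p: cTCCGTTCtaaaatagatgac
miR1137-280-5p: cTCCGTTCcaaaatagatgact
miR1137-26-3p: cATCTATTttggaacggaggg
miR1137-438-3p: tCATCTATtttggaacggagg
miR1137-229-3p: gTCATCTAttttgaaacggaa
miR1137-264-3p: aGTCATCTattttgaaacgga

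The first pair, both from the 5p arm, was listed at the 3 proteases and shared 1 seed. The second pair was listed at the transporter and the third at the invertase, all from the 3p arm, and these 4 miRNAs had 4 different seeds. They were nonetheless shifted copies within a pair, as miR1137-26-3p and miR1137-438-3p shared a run of 20 bases and so did miR1137-229-3p and miR1137-264-3p. The arms mirrored each other, since miR1137-438-3p and the reverse complement of miR1137-280-5p had a run of 20 bases in common. One miRNA was 22 nt long, miR1137-280-5p, and the other 5 were 21 nt. No miRNA was listed in more than 1 of the 3 gene classes.

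The stretches of coding sequence covered by the listed binding sites are shown because their pairing differed by class. Each spans 22 bases and is printed 5′ to 3′ on the transcript strand, with capitals at bases that lie opposite the miRNA named without forming a standard pair. The 1 base of each stretch beyond that miRNA, at position 1010, 1703 or 1549, is left in lower case.
Proteases, positions 1010 to 1031, against miR1137-504-5p: agtcatAtattttagaTcTgCg
Transporter, positions 1682 to 1703, against miR1137-26-3p: ccctccgttcTaaaatagatga
Invertase, positions 1528 to 1549, against miR1137-229-3p: CtcAgttCcaaaatagatgacc

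At the proteases, the seed of the miRNA was the poorly paired part. Bases 2, 4 and 6 of both miRNAs were mismatched, as was base 16, giving a score of 4 with miR1137-504-5p. The score is the authors' penalty for imperfect pairing, where 0 is perfect. With miR1137-280-5p base 9 was mismatched too and the score was 5. Counted from the 5′ end, the 2 miRNAs differ by T9C and by 1 extra base at the 3′ end of miR1137-280-5p.

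The transporter site paired with all bases of its miRNAs apart from 1 G:U wobble, at base 11 of miR1137-26-3p and base 12 of miR1137-438-3p, for a score of 0.5 in each of its 3 rows. The invertase site was paired throughout the seed and scored 3 with both miRNAs. Its mismatches lay at bases 14, 18 and 21 of miR1137-229-3p and at bases 1, 15 and 19 of miR1137-264-3p. Across the 11 rows the score equalled the number of mismatches plus 0.5 per wobble, which held in 160 of the 232 rows of the table aligned without gaps.

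**Figure D1:**
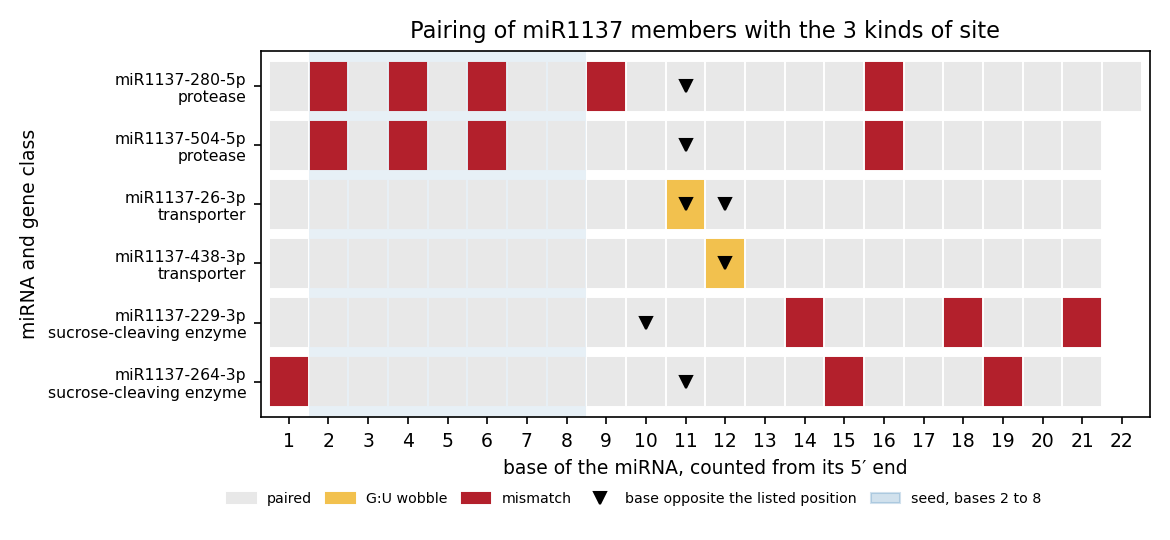
Pairing state of each miRNA base, counted from the 5′ end, for the 6 miRNAs and their gene class; triangles mark the base opposite the listed position and the shaded band the seed. Mismatches fall on seed bases 2, 4 and 6 as well as base 16 at the proteases, and on base 9 with miR1137-280-5p; the transporter has 1 wobble and no mismatch, and the invertase mismatches lie outside the seed.

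At least 3 unpaired seed bases were found in 6 of the 11 rows, all at the proteases, against 3.35% of all 239 rows. The proteases made up 6 of the 8 such rows, and these 6 repeat 2 pairings over 3 copies of a gene. The other 2 rows belonged to miR1120-1193-3p, at glucan synthase-like 10 (TraesCS5B01G215200) and an RNA-binding protein (TraesCS6B01G256600), each with 5 of 8 tags. Of the miR1137 rows outside the 5 loci, 0 had as many unpaired seed bases. No row of the table had more than 3.

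The proteases, with the weakest pairing, had the most tags of the 3 classes, though no difference between classes passed its test. Each protease homoeologue had 12 tags at position 1021 (exact Poisson 95% interval 6.20 to 20.96), out of 27 tags in the surrounding window, which the table names as 10 nt wide. The remaining 15 tags of that window lay at other positions. The share of the peak was 44.4% (Wilson 95% interval 27.6 to 62.7). All values of the 3 homoeologues were identical, as were their binding sites, so the table does not show from which copy the tags came and they were counted as 1 site in the comparisons.

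The transporter was listed at 2 neighbouring positions with different windows. At position 1692 it had 5 tags (interval 1.62 to 11.7) of 7, or 71.4% (35.9 to 91.8), under both of its miRNAs. At position 1691, under miR1137-26-3p alone, it had 4 tags (1.09 to 10.2) of 13, or 30.8% (12.7 to 57.6). If windows are centred on their positions, a window of 7 cannot hold both peaks, which together have 9 tags, so the 2 positions may not rest on 1 set of tags. The invertase had 4 tags at position 1539 (1.09 to 10.2), which were all the tags of its window (100%, interval 51.0 to 100).

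**Figure D2:**
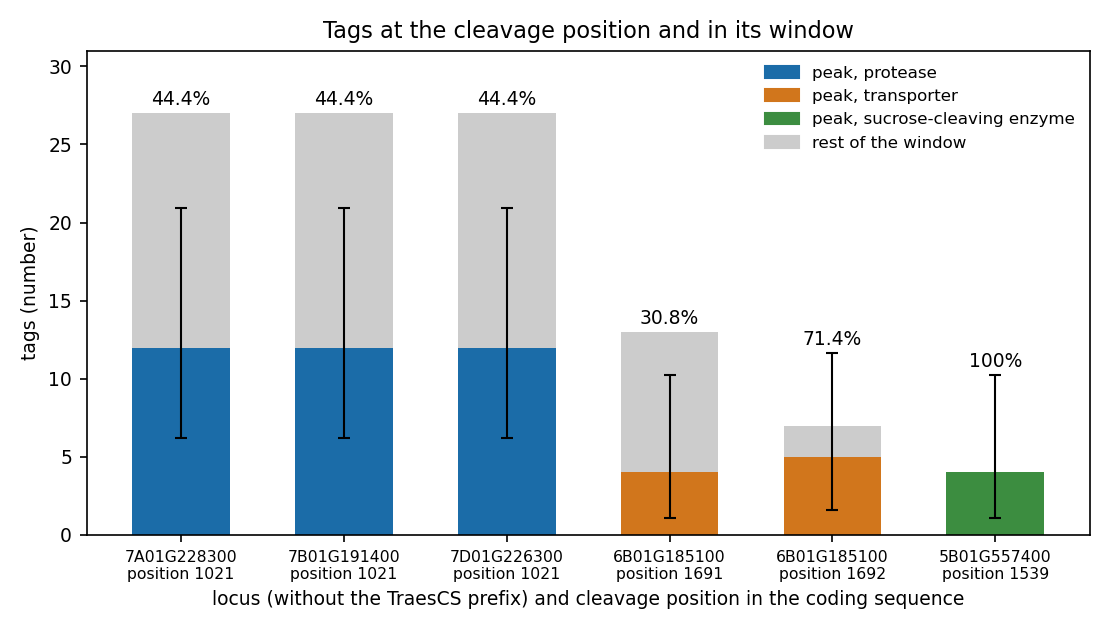
Tags at the cleavage position (coloured) and in the rest of its window (grey) for each locus and position, with exact Poisson 95% intervals of the peak and the window share above the bars. The proteases show 12 of 27 tags each, the transporter 4 of 13 and 5 of 7, and the invertase 4 of 4.

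The proteases had 2.4 times the tags of the transporter's higher position (95% interval 0.787 to 8.70; exact binomial test, two-sided, p = 0.143, adjusted p = 0.215) and 3 times those of the invertase (0.909 to 12.8; exact binomial test, p = 0.0768, adjusted p = 0.215). Transporter and invertase differed by a factor of 1.25 (0.269 to 6.30; exact binomial test, p = 1, adjusted p = 1). The peak's share of the window was lower at the proteases than at the transporter (difference of -26.98 percentage points, Newcombe 95% interval -53.4 to 12.96; Fisher's exact test, two-sided, p = 0.398, adjusted p = 0.491) and than at the invertase (-55.6 points, interval -72.4 to -3.28; Fisher's exact test, p = 0.101, adjusted p = 0.304). The difference between transporter and invertase was -28.6 points (-64.1 to 24.5; Fisher's exact test, p = 0.491, adjusted p = 0.491). None of these 3 pairs reached an adjusted p under 0.05 in either measure, with adjustment over the pairs, although 1 of the intervals leaves out 0. With the transporter at its other position the first difference changed sign, to 13.7 points (Fisher's exact test, adjusted p = 0.503), and that between transporter and invertase widened to -69.2 points (Fisher's exact test, adjusted p = 0.0882). The intervals cover counting error only and the classes have 1 distinct site or 2 each. A tag count also depends on how much of a transcript was present, which the table does not give. The exact binomial test takes both counts at the same depth, which is not known here. The protease tags may also come from more than 1 of the 3 gene copies. The tag ratios therefore remain a description.

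Set against the 92 sites of the table, 4 sites had more tags than the proteases, and 5 had exactly 12 with the homoeologues among them. The transporter's 5 tags equalled the median site. The invertase was among the 32 of the 92 sites at 4 tags, the lowest count in the table. In window share the proteases were in the lower part, with 21 sites below them, while the median share was 71.4%, the value of the transporter at position 1692. Over 4 tags, the threshold that the study states, were found in 8 of the 11 rows, against 48.5% of all rows. With the homoeologues counted once it was 4 of 7 rows, near the share of all rows. The 3 rows at exactly 4 tags were the 2 of the invertase and the transporter at position 1691. All 11 rows were given category 0, the class of most prominent peaks within a transcript, as were 168 of the 239.

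**Figure D3:**
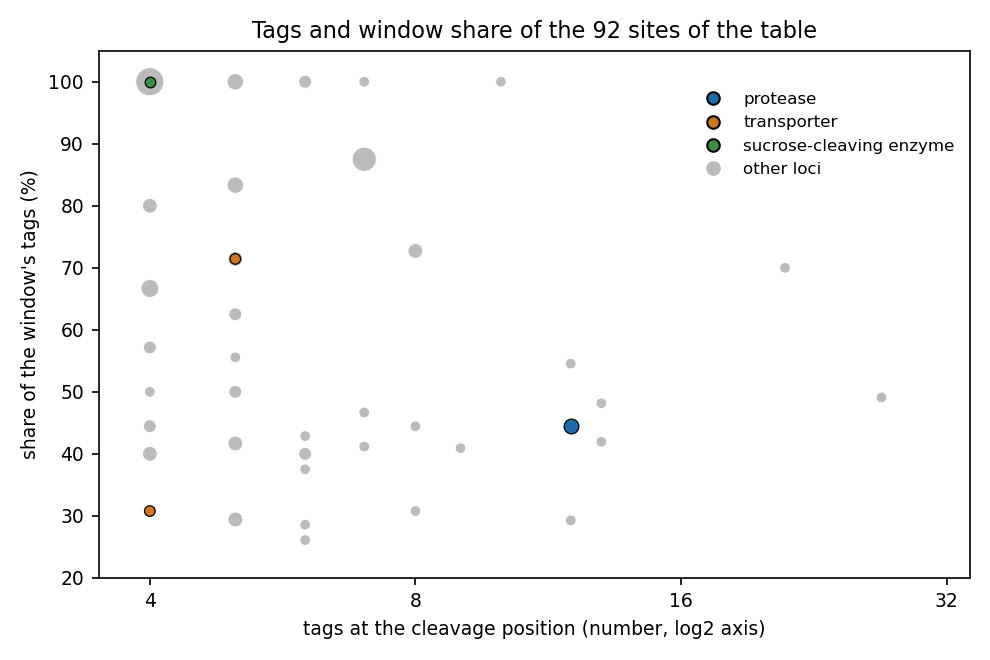
Tags at the cleavage position (log2 axis) against the share of the window's tags for the 92 sites; larger dots hold several sites. The protease dot stands for 3 homoeologues at 12 tags and 44.4%, and the invertase dot lies at 4 tags and 100%.

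The deposited p-value of a site followed another order than the tags. It was lowest at the invertase, 0.000145 under miR1137-229-3p and 0.000726 under miR1137-264-3p for the same 4 tags. It was 0.00178 and 0.00179 at the transporter's positions. The proteases had 0.0044 under miR1137-504-5p and 0.0116 under miR1137-280-5p for the same 12 tags, so this value moved with the miRNA at an unchanged peak.

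Base 10 of the miRNA faced the listed position in 1 of the 11 rows (9.09%), that of the invertase under miR1137-229-3p, against 42.3% of all rows. With the homoeologues counted once it was 1 of 7 rows (14.3%). Over the 6 distinct sites, 3 of them the identical homoeologues, it was 16.7%, and this share was not taken over all sites of the table. Rows of 1 site share their tags and are not independent, so these shares are a description and no difference from all rows was tested. Base 11 was opposite the position in 8 of the 11 rows, among them all 6 of the proteases, against 69 of all 239 rows. That became 4 of 7 rows with the homoeologues counted once. Base 12 was opposite it in 2 rows of the transporter, against 59 of all 239 rows. At 1 position the opposite base depended on which of the shifted miRNAs was aligned. At the invertase it was base 10 for miR1137-229-3p and base 11 for miR1137-264-3p, and at position 1692 of the transporter base 11 for miR1137-26-3p and base 12 for miR1137-438-3p. Of the 6 other miR1137 rows, 2 lay opposite base 10 and 4 opposite base 12.

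By a penalty of 1 per mismatch and 0.5 per wobble, which is not the authors' score in every row, further miR1137 miRNAs reached the penalty of a listed one at the proteases. All miR1137 miRNAs in the study's list of 18 that fit inside the 22 bases were aligned to each site. Within the 22 bases of the transporter and the invertase only the listed pair came near, with penalties of 0.5 and 3. The next miRNA was at 11 in both. At the proteases miR1137-504-5p stood alone at 4, and miR1137-280-5p at 5 was joined by miR1137-121-5p, miR1137-385-5p and miR1137-443-5p with the same penalty, none of which was listed there. A further one, miR1137-137-5p, was at 5.5. Bases beyond the binding sites are not in the table, so pairings that reach past them could not be scored. A shifted copy could then be scored only out of register, and its high penalty does not show poor pairing. At the invertase, miR1137-438-3p stood at 14 in this way.

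The transporter and invertase sites read like 5p miR1137 miRNAs on the transcript strand. This follows from their listing under 3p miRNAs, since the arms mirror each other. The transporter site held a run of 20 bases identical to miR1137-504-5p, the miRNA listed at the proteases, and the invertase site runs of 17 bases identical to miR1137-280-5p and to 3 other 5p miRNAs, miR1137-121-5p, miR1137-385-5p and miR1137-443-5p. Between themselves the 2 sites shared a run of 11 bases on the same strand. The protease site was listed under 5p miRNAs, so the same likeness does not follow for it. It shared 5 bases with each of the other sites on the same strand, and 9 with the reverse complement of the transporter site.

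The sites were next set against whole precursors. The 22 bases of the transporter site occurred unchanged in 2 of the 18 miR1137 precursors, those of miR1137-504 and miR1137-229, and as the reverse complement in that of miR1137-385. A pair of them is shown, from the study's list of precursors, with the site in capitals, to place it in each arm.
miR1137-504 precursor, same strand, bases 2 to 23 of 86: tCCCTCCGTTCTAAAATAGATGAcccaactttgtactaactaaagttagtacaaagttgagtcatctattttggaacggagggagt
miR1137-385 precursor, reverse complement, bases 69 to 90 of 93: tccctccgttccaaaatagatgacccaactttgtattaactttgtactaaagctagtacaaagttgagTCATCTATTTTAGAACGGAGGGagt

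With up to 1 mismatch allowed, the transporter site was found in 10 of the 18 precursors on the same strand and in 13 as the reverse complement. The invertase site was not found unchanged, and came within 1 mismatch of 5 on the same strand. The protease site was no closer than 4 mismatches on the same strand and 5 on the other, with medians of 5 and 6 over the 18. For scale, the median over the 149 precursors of other families was 10 on the same strand and 11 on the other for the protease site, 9 and 10 for the transporter and 10 on both for the invertase. Outside miR1137, the precursor of miR1439-2 came closest to the transporter and invertase sites and differed by 1 base from the transporter site on the same strand and from the invertase site on both. For the protease site it was that of miR1118-796, with 5 mismatches as the reverse complement, as few as the closest miR1137 precursor had on that strand. These are counts of letters and carry no test, since precursors of a family are copies of each other. The sites were listed for pairing with miRNAs cut from miR1137 precursors, whose arms mirror each other. Some closeness to miR1137 over other families therefore follows from the listing and is no separate result.

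**Figure D4:**
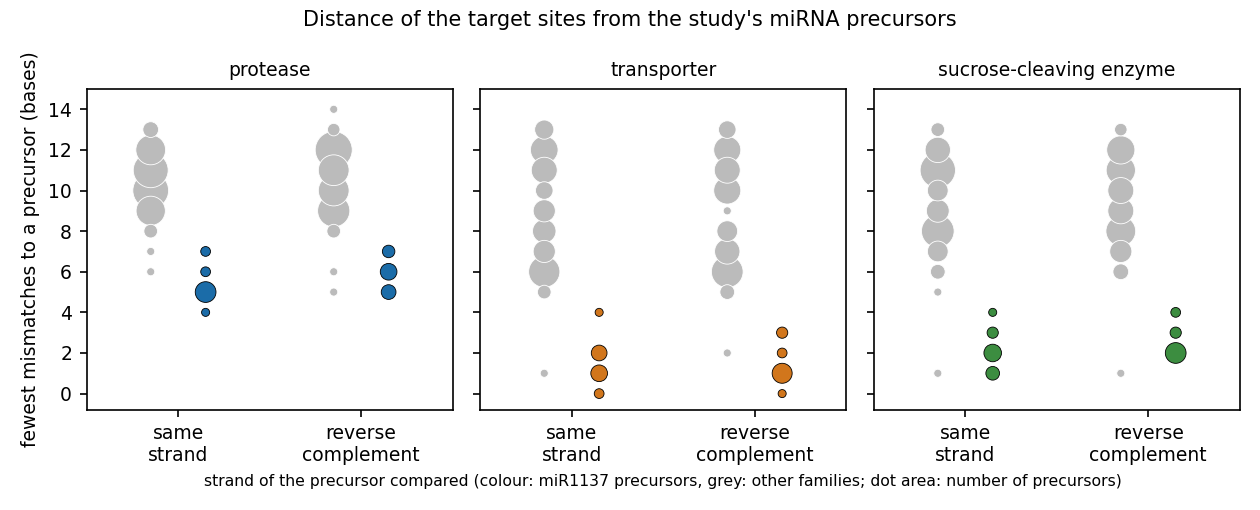
Fewest mismatches of each 22-base site to each precursor, on the same strand and as the reverse complement, for the 18 miR1137 precursors (coloured) and the 149 of other families (grey); dot area gives the number of precursors. The transporter site reaches 0 on both strands, while the protease site stays at 4 or more.

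Only 1 row of the table outside these loci carried a miRNA listed at them. It was miR1137-438-3p at position 690 of glucan synthase-like 10 (TraesCS5B01G215200), a callose synthase in Arabidopsis, with 5 of 5 tags at a score of 5, 2 unpaired seed bases and category 3, where the transporter had a score of 0.5 and category 0 under the same miRNA. Position 691 of this transcript was listed under miR1133-6-3p with 4 of 9 tags and category 0. If windows are centred on their positions, the window of 5 cannot hold these 4 as well, so the neighbouring positions may not rest on 1 set of tags. The remaining miR1137 locus was anthranilate synthase alpha subunit 2 (TraesCS4B01G114400), an enzyme at the entry to tryptophan synthesis, whose highest site had 27 of 55 tags. Its miR1137 sites faced the other way, sharing a run of 18 bases with the reverse complement of the invertase site and of 4 on the same strand.

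By words of the annotation, no further protease was in the table, so the protease list held the 3 homoeologues and no other locus. The transport list held 7 loci, but only the DETOXIFICATION locus among them carries the name of a family of exporters. The others were importin subunit beta-1, a nuclear import receptor, and 5 loci of the auxin receptor transport inhibitor response 1, which match by name only. The carbohydrate list held the invertase and glucan synthase-like 10.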

How the data were processed

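Per the study's methods, PARE reads were trimmed, reads of the expected length were collapsed to tags, and sPARTA placed these on the coding sequences of the IWGSC RefSeq v1.0 annotation, with targets predicted by miRferno. The only file used was the authors' target table. The paper reports targets at more loci than the 62 of this table, so a gene or pairing missing here may be among its other targets. The deposited abundance is a whole-number tag count at the cleavage position, with no stated normalization, and the deposited window abundance is a signal of tags summed around it. The deposited fraction is their ratio (largest gap 0.000481). The authors' pairing score, category and p-value for each site were used as given, and the corrected p-value was not. Rows were kept by the authors at a p-value under 0.05 and an abundance stated as over 4, though 123 rows had exactly 4 tags and 0 fewer. There were 0 columns of values per library, so depth per library is unknown and whether tags were pooled is not given in the sources used here.

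The table writes miRNAs 3′ to 5′. Reversed, they matched the study's list in 239 of 239 rows. Positions were taken as 1-based in the coding sequence, with binding sites and cleavage positions on the same scale, which was not checked. Genome coordinates were not used, since 0 of the 5 IDs were found in the gene table at hand, made for another assembly. Where a site had several rows, the one with the most tags stood for it, ties going to the lower p-value, and 1 leading site stood for each class. Tag counts were compared by exact binomial tests and window shares by Fisher's exact test, with Benjamini-Hochberg adjustment over 3 pairs (Python 3.11.15, SciPy 1.17.1). Intervals are at 95% and describe counting error alone, as reads copied by PCR do not count molecules. The pairing and test code was tested on simulated data. All 5 loci are named, with other loci listed under the same miRNAs or sharing a run of at least 15 bases, and those of the annotation lists. The loci and lists were chosen with earlier results of these data known.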

Additional observations from a re-analysis of the deposited data

How the results depend on the processing

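No paired analysis was possible because the target table carries no library or replicate number, and leaving out a replicate could not be run for the same reason. With the transporter taken at its other position, an alternative chosen after seeing the data, the window share of the proteases against it was 13.7 percentage points instead of -26.98, and that of the transporter against the invertase -69.2 instead of -28.6 (Fisher's exact test, adjusted p = 0.0882 instead of 0.491). With identical homoeologues counted once, the members had 7 rows instead of 11, and 4 sites instead of 6. The median score of the proteases was 4.5 against a lowest of 4. Of the 35 alternative values, 1 was reversed, the 13.7 points, and 2 moved, the 7 rows and the median score. The remaining 32 kept their direction and side of the threshold or stayed within the limits set for them. Among these 32 were the -69.2 points and the 4 sites with homoeologues counted once. They also held the 4 sites at an abundance over 4, where the invertase dropped out and could not be compared. With both transporter positions added, its tags came to 9 against 12 at the proteases (exact binomial test, adjusted p = 0.664). Those positions may not rest on 1 set of tags, so the sum is a description only. Counts of 4 to 12 tags limit every comparison.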
